A study of Solanum lycopersicum with 9 samples.

Results

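The genes described here are 5 sugar transporters of tomato (Solanum lycopersicum), taken by identifier from a table of 23195 genes. The set holds 2 hexose transporters, HT1 (Solyc02g079220.3) and HT2 (Solyc09g075820.3), and 3 tonoplast sugar transporters, Solyc04g082700.3, Solyc03g032040.3 and Solyc02g082410.3. All 5 were present and passed the filter on low counts, as did 20480 genes in all. The names come from the list that defined the set, because the table pairs no names with identifiers. The reference gene table (assembly SLM_r2.1) lists HT1, also called LeHT1, on chromosome 2 and HT2, also called LeHT2, on chromosome 9. Those are the chromosomes that the identifiers carry, but 0 of the 5 identifiers could be matched to that table, and no sequence of these genes was used here.

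Hexose transporters of this kind sit in the plasma membrane and carry glucose and related monosaccharides into the cell together with protons. They take up hexoses that invertases release from sucrose outside the cell, a route best known from sugar-importing tissues such as fruit, roots and young leaves. Tonoplast sugar transporters sit in the membrane around the vacuole and, as known from Arabidopsis and sugar beet, move hexoses or sucrose into it in exchange for protons. In a mature leaf, which exports most of its sugar as sucrose, they help to set how much sugar is held back in the vacuole.

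The libraries came from leaf RNA of wild-type M82, a tomato cultivar, and formed 3 groups with 3 biological replicates in each. In the defoliation group all leaves but the measured one had been cut off, and in the shading group foil covered all leaves but the youngest fully expanded one. The control group was parallel leaves of plants with neither treatment, and no mock cut or mock cover is described for them. All plants had been potted at 4 weeks of age, and treatment began 1 week after the first flowers had opened. The labels of the treated libraries carry the number 48 with no unit, and those of the control libraries carry none, so what it marks cannot be told apart from the treatments.

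Library totals ran from 17617138 to 31012772 counts, and shading replicate 3 was the smallest. In that library 1657 genes had no count, where the remaining 8 libraries had 334 to 711 such genes. Levels are given as CPM (counts scaled to library size, with TMM factors), on which a single count was worth 0.0310 to 0.0646 CPM. CPM depends on transcript length, so levels are compared between groups and not between genes. Of the 6 genes listed as mesophyll markers (Rubisco small subunits, Rubisco activase and a chlorophyll-binding protein, by general knowledge of their identifiers), the lowest value in any library was 745 CPM. Their summed level was 64304 to 81013 CPM after defoliation, 98999.7 to 116637 CPM under shading and 57990.1 to 71906 CPM in control leaves. The part of this shift in the transporter values was not tested. These are whole-leaf RNA samples, so fewer cells of a type and less RNA per cell cannot be told apart. Of the 2 genes listed for ripe fruit, phytoene synthase 1 was at 210 to 316 CPM in all libraries. The other, a polygalacturonase, was not among the 23195 genes of the table, so it has no value here.

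HT2 rose 3.64-fold after defoliation. HT1 fell to 0.57 of its control level under shading, a call kept in 5 of the 9 fits with 1 library left out. Among the tonoplast transporters, Solyc03g032040 rose after defoliation, with much of its rise in 1 library, while Solyc04g082700 and Solyc02g082410 did not pass the test in any comparison. In counts, 2 of 5 members rose and 0 fell after defoliation, where 34.3% of all genes tested were called, 18.9% higher and 15.4% lower. Under shading 0 rose and 1 fell, where 30.2% of all genes were called, 16% higher and 14.2% lower. The median log2 fold change of the members was 0.18 after defoliation and 0.24 under shading, against -0.019 and -0.022 over all genes. With so many genes called and only 5 members, these counts are not read as a result about the set.

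**Figure D1:**
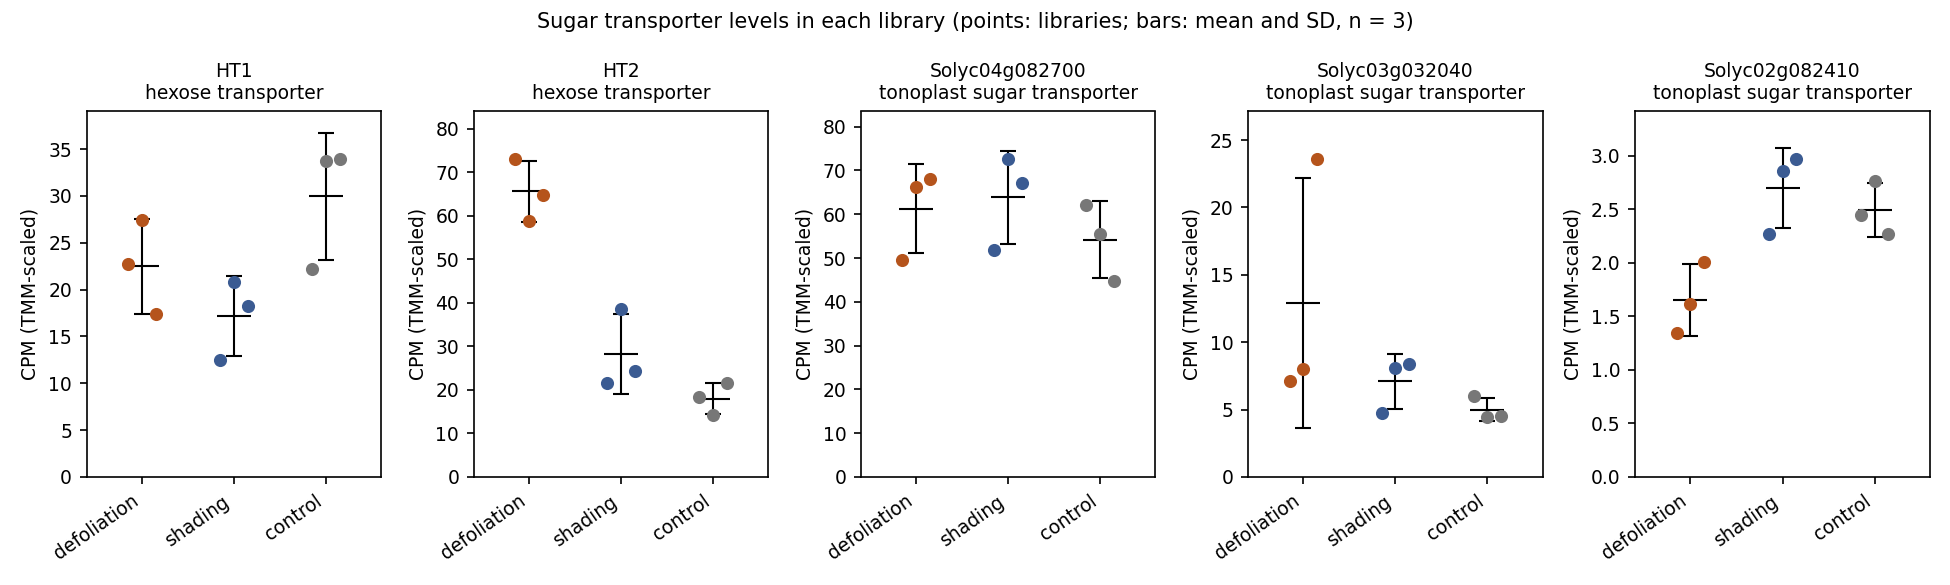
Level of each transporter in each library in CPM (vertical axes from 0, a scale per gene) in the defoliation, shading and control groups; points are libraries, and bars are the mean and SD of 3 libraries. The defoliation libraries of HT2 (58.9 to 73.0 CPM) lie above all others, and 1 defoliation library of Solyc03g032040 stands at 23.6 CPM.

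HT2, a plasma membrane hexose importer, stood at 73.0, 58.9 and 64.8 CPM in the 3 defoliation libraries. Under shading it stood at 21.6, 38.7 and 24.4 CPM, and in control leaves at 18.3, 14.3 and 21.5 CPM. Every defoliation library was above every shading and control library. The shading libraries also all lay above the control libraries, though the lowest of them and the highest control were almost level. Group means were 65.6 ± 7.07 CPM after defoliation, 28.2 ± 9.16 CPM under shading and 18.0 ± 3.62 CPM in control leaves (SD, n = 3 each).

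The rise of HT2 after defoliation had a log2 fold change of 1.86 ± 0.23 (SE, edgeR quasi-likelihood test, adjusted p = 0.000555). Its 95% interval ran from 2.56-fold to 5.18-fold. The size of this change was larger than that of 95.3% of all genes tested in the same comparison. It passed the test with each of the 9 libraries left out in turn and under all 10 other settings tried, with log2 fold changes between 1.72 and 2.01.

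Under shading the HT2 level was 1.57 times that of control leaves (log2 fold change 0.65 ± 0.22 SE), and it missed the threshold (edgeR adjusted p = 0.0520). The 95% interval of this difference was 1.11-fold to 2.22-fold. The value lay so near the threshold that the call turned with the processing. DESeq2 gave an adjusted p of 0.0233 and edgeR with RLE scaling gave 0.0468. Without shading replicate 2, the highest of the 3, the log2 fold change was 0.35 (edgeR adjusted p = 0.197). Without shading replicate 1 it was 0.81 (edgeR adjusted p = 0.0308), and without control replicate 3 it was 0.80 (edgeR adjusted p = 0.0457). Over all these settings the adjusted p ran from 0.0233 to 0.197.

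Set directly against each other, the treatments left HT2 2.32-fold lower under shading than after defoliation (log2 fold change -1.21 ± 0.22 SE, 95% interval 1.64-fold to 3.28-fold). The edgeR test did not call it after adjustment over all genes (adjusted p = 0.0941, unadjusted p = 0.000288). Only 3 genes, 0.0146% of those tested, were called in that comparison, and HT2 ranked 57th by p-value (57 of 20480). DESeq2 called it (adjusted p = 0.000218) among 1014 genes, 5.2% of those it tested. The direction held with each library left out, between -1.51 and -1.05, and edgeR adjusted p then ran from 0.0939 to 0.334.

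HT1, the other hexose importer, stood at 22.7, 27.4 and 17.3 CPM after defoliation. It stood at 12.4, 20.8 and 18.3 CPM under shading and at 22.2, 33.7 and 33.9 CPM in control leaves. All shading libraries were below all control libraries, whereas the defoliation libraries overlapped both other groups. Means were 22.5 ± 5.03 CPM after defoliation, 17.2 ± 4.27 CPM under shading and 29.9 ± 6.73 CPM in control leaves (SD, n = 3 each). Control replicate 1 was the lowest control, and the other 2 controls were 1.52 times as high or more.

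HT1 fell by 0.80 ± 0.24 on the log2 scale under shading (SE, edgeR adjusted p = 0.0312), which is 1.74-fold lower with a 95% interval of 1.20-fold to 2.53-fold. All 10 other settings kept this call. It depended on single libraries, however, and was lost without control replicate 2 (log2 fold change -0.68, edgeR adjusted p = 0.112) or control replicate 3 (-0.70, edgeR adjusted p = 0.0907). It was also lost without shading replicate 1 (-0.61, edgeR adjusted p = 0.0971) or shading replicate 3 (-0.85, edgeR adjusted p = 0.0640). The fall occurred in the group with the highest summed mesophyll markers, as given above, and any link between them was not tested.

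After defoliation the log2 fold change of HT1 was -0.41 ± 0.24 (SE) and did not pass (edgeR adjusted p = 0.207). The interval ran from 0.520 to 1.09 times the control level, so a fall of the size seen under shading lies within it. Shading against defoliation gave -0.39 ± 0.24 (SE, edgeR adjusted p = 0.438), with 0.526 to 1.11 times the defoliation level as the interval. The call under shading alone is therefore not a measured difference between the treatments. In the order of its means HT1 was lowest under shading and highest in control leaves, and in that order neither step between neighbours passed the test.

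The ratio of HT2 to HT1 within a library does not depend on how the library was scaled. On the CPM scale this ratio was 3.21, 2.15 and 3.73 after defoliation, 1.73, 1.86 and 1.34 under shading and 0.825, 0.423 and 0.634 in control leaves. The 3 groups did not overlap, which was already so for HT2 alone, so this separation is not a further result. Since transcript lengths were not used, only the change of the ratio between groups can be read, not which gene was the more abundant. The log2 ratio averaged 1.56 ± 0.41 after defoliation, 0.70 ± 0.25 under shading and -0.73 ± 0.49 in control leaves (SD, n = 3 each). The difference from control was 2.29 after defoliation and 1.43 under shading, and shading minus defoliation gave -0.86. Each difference had an exact two-sided permutation p of 0.1, the smallest that 3 against 3 libraries allow, and 0.15 after adjustment over 12 ratio tests.

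**Figure D2:**
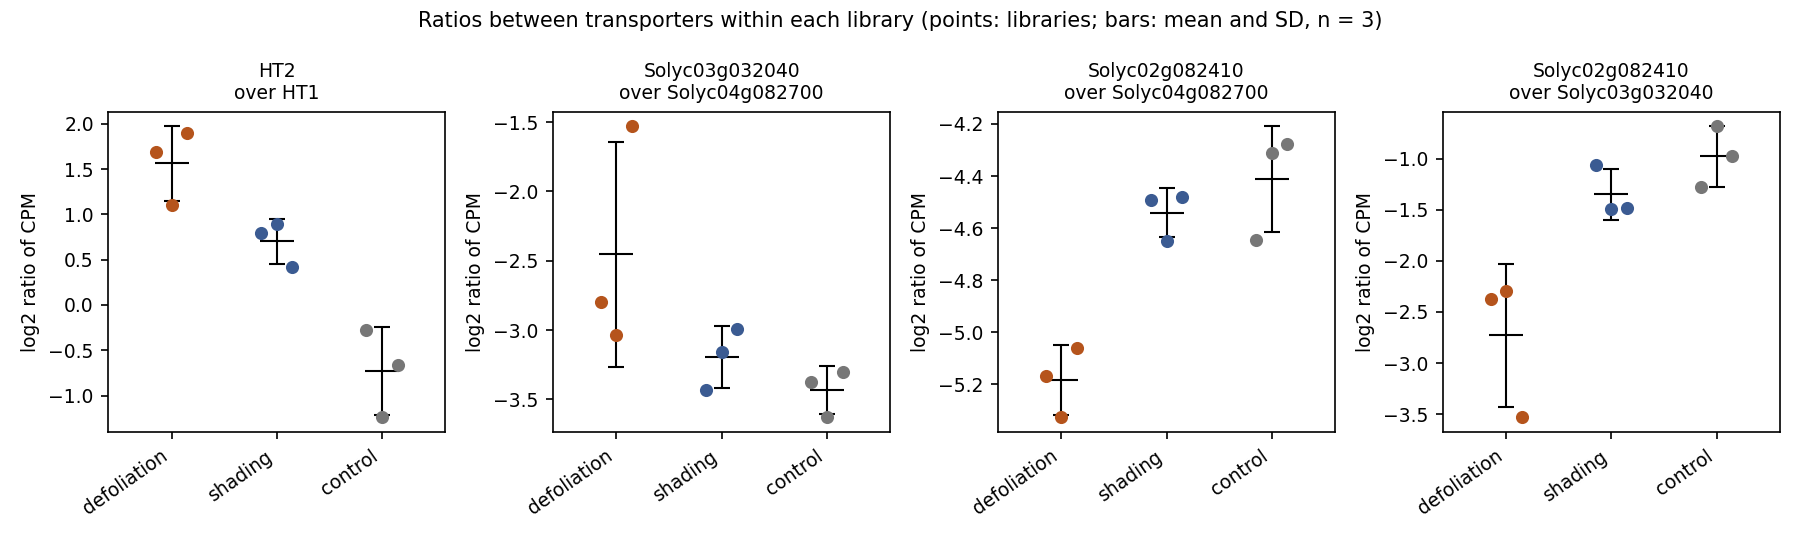
Log2 ratio of the CPM of 2 transporters in the same library (vertical axes, a scale per pair) in the defoliation, shading and control groups; points are libraries, and bars are the mean and SD of 3 libraries. For HT2 over HT1 the groups fall in 3 separate ranges, with means of 1.56, 0.70 and -0.73.

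Solyc04g082700 is listed as a tonoplast sugar transporter, a carrier that loads sugar into the vacuole. Its levels were 49.6, 66.2 and 68.1 CPM after defoliation, 51.9, 72.6 and 67.0 CPM under shading and 62.2, 55.6 and 44.8 CPM in control leaves. The 3 groups overlapped throughout. Means were 61.3 ± 10.2, 63.8 ± 10.7 and 54.2 ± 8.77 CPM after defoliation, under shading and in control leaves (SD, n = 3 each). Log2 fold changes against control were 0.18 ± 0.18 after defoliation (SE, edgeR adjusted p = 0.474) and 0.24 ± 0.18 under shading (SE, edgeR adjusted p = 0.347). The upper ends of the 95% intervals were 1.49-fold and 1.55-fold above control, and the lower ends 0.860 and 0.894 of it. Shading against defoliation gave 0.058 ± 0.18 (SE, edgeR adjusted p = 0.896). This gene had the narrowest intervals of the 5 members in all 3 comparisons.

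Solyc03g032040, listed in the same class, stood at 7.09, 8.04 and 23.6 CPM after defoliation. Under shading it stood at 4.77, 8.11 and 8.39 CPM, and in control leaves at 5.97, 4.46 and 4.52 CPM. Defoliation replicate 3 was 2.93 times as high as the next defoliation library, the widest such gap among the 5 members. That library was at least 2-fold above both other defoliation libraries for 227 genes, 1.11% of those tested. Over the 9 libraries this share ran from 0.513% to 3.43%. Defoliation replicate 3 was at least 2-fold below both for 589 genes, 2.88%, against 0.815% for each of replicates 1 and 2. Over the 9 libraries the share below ran from 0.815% to 5.43%. All defoliation libraries were above all control libraries, while shading overlapped both groups.

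The rise of Solyc03g032040 after defoliation had a log2 fold change of 1.37 ± 0.45 (SE, edgeR adjusted p = 0.0399), or 2.59-fold with a 95% interval of 1.29-fold to 5.19-fold. Leaving out defoliation replicate 3 lowered the log2 fold change to 0.60 and ended the call (edgeR adjusted p = 0.124). The call was also lost without any 1 control library, at 1.53, 1.29 and 1.31 without replicates 1, 2 and 3 (edgeR adjusted p = 0.0670, 0.108 and 0.101). Without shading replicate 2 or 3, which enter only through the shared estimate of spread, the adjusted p was 0.0565 and 0.0553. It did not pass with limma-voom (1.17, adjusted p = 0.0745), with the replicate number as a block (1.17, edgeR adjusted p = 0.0640) or with the 2 compared groups alone (1.36, edgeR adjusted p = 0.0663). DESeq2 called it (adjusted p = 0.00585). Under shading the log2 fold change was 0.50 ± 0.45 (SE, edgeR adjusted p = 0.428), and shading against defoliation gave -0.87 ± 0.44 (SE, edgeR adjusted p = 0.358). Without defoliation replicate 3 the direct log2 fold change was -0.097 (edgeR adjusted p = 0.927).

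Solyc02g082410, the last tonoplast member, had the fewest counts of the 5, between 36 and 81 per library. It stood at 1.34, 1.61 and 2.00 CPM after defoliation, 2.27, 2.86 and 2.97 CPM under shading and 2.45, 2.77 and 2.27 CPM in control leaves. The defoliation libraries were below all 6 others, and shading overlapped control. Against control the log2 fold change after defoliation was -0.59 ± 0.25 (SE), which did not pass after adjustment (edgeR adjusted p = 0.0916, unadjusted p = 0.0383). Shading stood 0.70 ± 0.25 above defoliation on the log2 scale (SE, 1.62-fold with a 95% interval of 1.11-fold to 2.38-fold), which did not pass either (edgeR adjusted p = 0.207). Under shading it was 1.08 times the control level (log2 fold change 0.11 ± 0.25 SE, edgeR adjusted p = 0.766), with a 95% interval of 0.739-fold to 1.58-fold.

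**Figure D3:**
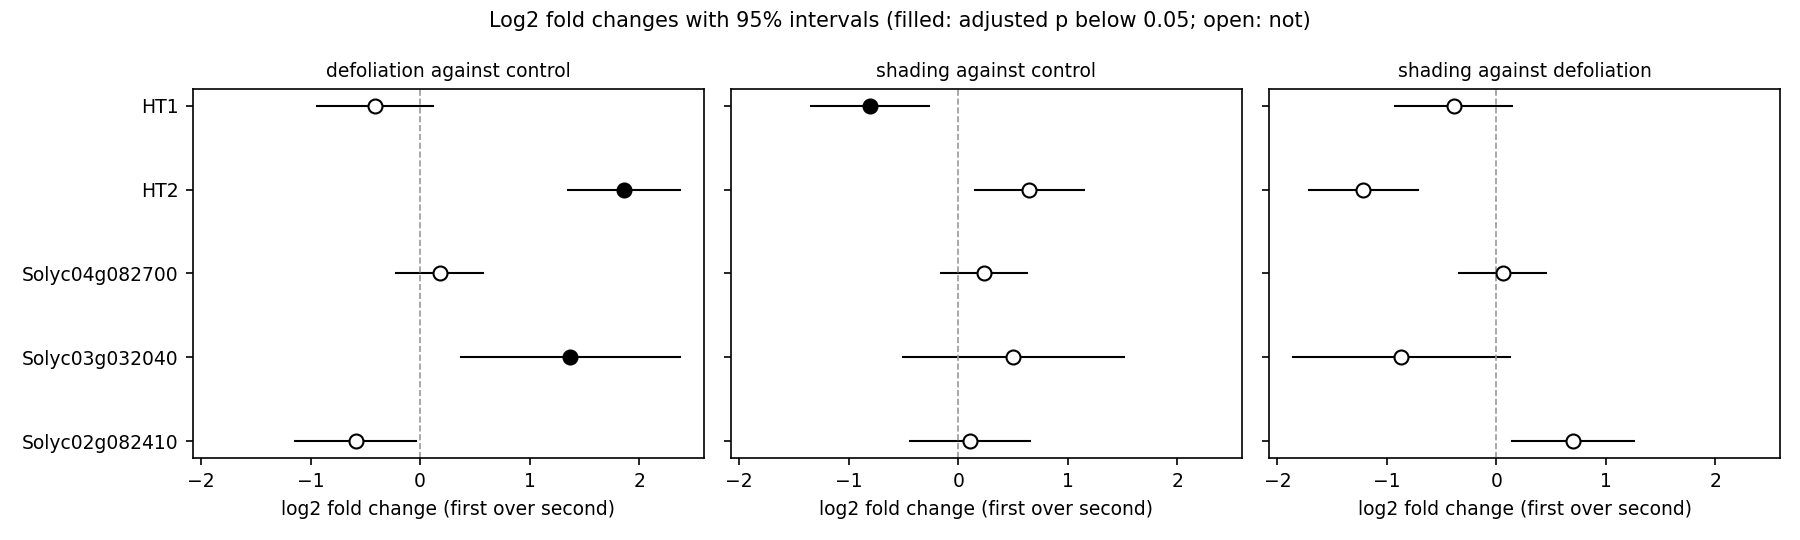
Log2 fold changes of the 5 transporters (horizontal axis) in the 3 comparisons, first group over second; points are edgeR estimates from 9 libraries, lines their 95% intervals, and filled points have an adjusted p below 0.05. Filled points are HT2 (1.86) and Solyc03g032040 (1.37) after defoliation and HT1 (-0.80) under shading.

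Of the ratios between the 3 tonoplast genes, those with Solyc02g082410 set the defoliation libraries apart from both other groups. The log2 ratio of Solyc02g082410 to Solyc03g032040 was -2.37, -2.29 and -3.53 after defoliation, -1.06, -1.49 and -1.49 under shading and -1.27, -0.68 and -0.98 in control leaves. Defoliation libraries were below all others, and shading overlapped control. Without defoliation replicate 3 the difference of this log2 ratio from control was -1.35 in place of -1.75. How often ratios of other gene pairs set the groups apart was not computed. For Solyc02g082410 over Solyc04g082700 the log2 ratio averaged -5.18 ± 0.13 after defoliation, -4.54 ± 0.09 under shading and -4.41 ± 0.20 in control leaves (SD, n = 3 each). Again defoliation lay below both other groups, which overlapped. The ratio of Solyc03g032040 to Solyc04g082700 averaged -2.45 ± 0.81, -3.19 ± 0.22 and -3.43 ± 0.17 on the log2 scale after defoliation, under shading and in control leaves. Here defoliation lay above control but overlapped shading (exact two-sided permutation p = 0.2, adjusted 0.24). Its values after defoliation were -2.80, -3.04 and -1.53, and without the last of these, replicate 3, the difference from control was 0.52 in place of 0.98. Wherever defoliation and control did not overlap the exact two-sided permutation p was 0.1, again the smallest possible, and 0.15 after adjustment over the 12 ratio tests.

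Counting libraries rather than tests, 3 of 5 members did not overlap between defoliation and control, where this held for 51.9% of all genes. Between shading and control it was 2 of 5 members, against 46.3% of all genes, and between shading and defoliation 2 of 5, against 21.8%. In the direct comparison edgeR called 0 of 5 members higher, where it called 0.00977% of all genes, and 0 of 5 lower, where it called 0.00488%. An unadjusted edgeR p below 0.05 was found for 3 of 5 members after defoliation (44.9% of all genes) and for 2 of 5 under shading (41.6%). In the direct comparison it was found for 2 of 5, HT2 and Solyc02g082410 in opposite directions (16.6% of all genes). DESeq2 called 2 of 5 members after defoliation, where it called 35.9% of all genes, and 2 of 5 under shading, where it called 33.2%.

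**Figure D4:**
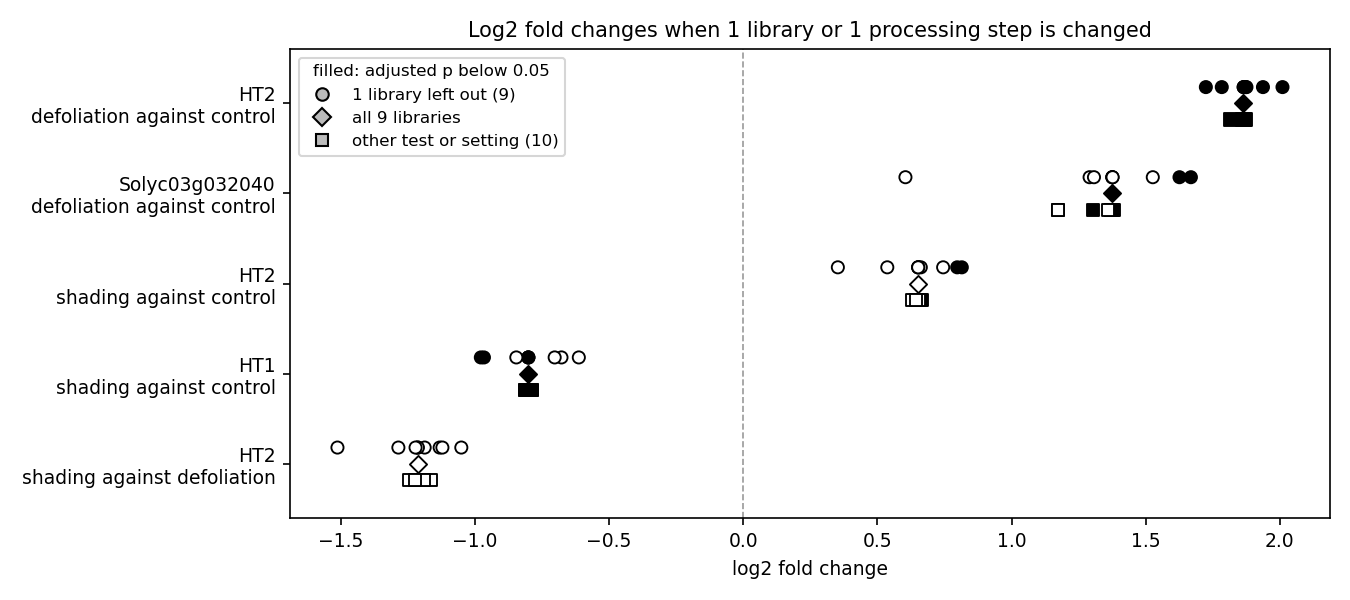
Log2 fold changes (horizontal axis) of 5 results with all 9 libraries (diamonds), with each library left out in turn (circles) and under 10 other tests or settings (squares); filled symbols have an adjusted p below 0.05. HT2 after defoliation is filled throughout, between 1.72 and 2.01, while Solyc03g032040 drops to 0.60 without defoliation replicate 3.

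Other steps of sugar handling were followed through 18 identifiers listed from general knowledge of tomato, which the table does not annotate. Of these, 16 were tested, and 3 rose and 2 fell after defoliation, while 2 rose and 1 fell under shading. Over all genes 34.3% were called after defoliation and 30.2% under shading, so these counts are read as no more than the background. Sucrose carriers, which move sucrose across membranes, had 1 of 3 lower after defoliation, and no call under shading (adjusted p 0.187 or more in the edgeR test). Acid invertases, which split sucrose into hexoses, had 1 of 3 tested higher after defoliation and 1 of 3 lower under shading. Cell-wall and vacuolar enzymes were not separated in this list. Sucrose synthases had 1 of 3 higher and 1 of 3 lower after defoliation and 1 of 3 higher under shading. Hexokinases and fructokinases, which phosphorylate hexoses, had 1 of 7 higher in each treatment. The median log2 fold change of the 16 genes was -0.083 after defoliation and -0.028 under shading.

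For each transporter the 2 genes with the most similar log2 CPM over the 9 libraries were sought among all tested genes. They are given as a description, since with 20480 genes and 9 libraries high correlations arise easily. For HT2 these were Solyc07g005930.3 (Pearson r = 0.97, and 0.79 after group means were subtracted) and Solyc07g005880.3 (0.97 and 0.66). Solyc07g005930.3 averaged 75.4 CPM after defoliation, 21.5 CPM under shading and 7.95 CPM in control leaves, the same order of groups as HT2. That shared order largely follows from the choice by correlation and is no separate result. HT1 was closest to Solyc01g101260.2 (0.98 and 0.96), which was near the counting limit at 0.476, 0.183 and 1.47 CPM after defoliation, under shading and in control leaves, and next to Solyc10g079370.2 (0.95 and 0.89). Solyc04g082700 was closest to Solyc12g099510.2 (0.96 and 0.97) and Solyc04g080180.1 (0.92 and 0.93). The closest genes were Solyc03g082940.3 (0.97 and 0.97) and Solyc09g075640.3 (0.95 and 0.93) for Solyc03g032040, and Solyc10g052540.1 (0.97 and 0.89) and Solyc12g006000.1 (0.97 and 0.93) for Solyc02g082410. No transporter of the set was among the 2 closest genes of another. After group means were subtracted, Solyc02g082410 had r = 0.83 with Solyc03g032040 and 0.80 with Solyc04g082700 (-0.20 and 0.30 before). Solyc04g082700 with Solyc03g032040 gave 0.66 (0.63 before). Pairs with a hexose transporter lay between -0.29 and 0.32 after group means were subtracted. Each tonoplast gene was highest of its group in defoliation replicate 3 and lowest of its group in shading replicate 1. Single libraries therefore weigh on these r values, and the share of all gene pairs that reach them was not computed.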

How the data were processed

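The authors deposited a table of RSEM expected counts, all of them whole numbers. The submitters' processing notes name Trim Galore, STAR, RSEM and DESeq2. Tool versions, annotation and genome build are not given in these sources. RSEM divides reads shared by similar genes by estimation, so related transporters could exchange counts, and the library kit does not mark strand. Genes were kept by filterByExpr (20480 of 23195), scaled by TMM and tested in R 4.3.3 with edgeR 4.0.16 (quasi-likelihood, robust, 9 libraries in 1 fit, a coefficient per group). P-values were adjusted by Benjamini-Hochberg over all tested genes, with 0.05 as threshold. The SE is the log2 fold change divided by the square root of F. Ratios between members used log2 CPM with a prior count of 1. The code was tested on simulated data. Alternatives were DESeq2 1.42.0, limma-voom (limma 3.58.1), other scalings, filters and fits, and leaving out libraries.

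All 5 members are named, with 2 closest genes each by Pearson r. Members and lists were chosen with earlier results of these data known. Replicates of a group are biological per the series' design text, and none agreed within sampling noise. Counts of 36 to 2140 lie behind each member value, and this precision covers counting error only. The count of genes 2-fold apart per library was added after seeing the data.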

Additional observations from a re-analysis of the deposited data

How the results depend on the processing

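Of the 5 transporters, the number called after defoliation was 2, but 1 with limma-voom, with the 2 compared groups alone and with the replicate block. Leaving out single libraries gave 1 to 2. The number called under shading was 1, but 2 with DESeq2 and with RLE factors (HT2 added), and 0 to 1 with libraries left out. It was 0 without control replicate 2 and without shading replicate 3. Without control replicate 3 and without shading replicate 1 it stayed at 1, but the gene called was HT2 and not HT1. Between the treatments it was 0, but 1 with DESeq2, and 0 with each library left out. Over all genes the direct comparison gave 3 calls, against 1014 with DESeq2, 0 with the replicate block and 0 to 5 with libraries left out. The direction of Solyc04g082700 in shading against defoliation reversed without defoliation replicate 1 (-0.075) and without shading replicate 2 (-0.045), with a range of -0.075 to 0.19 over single libraries left out. All other member directions held under every alternative run. Same-numbered libraries of different groups deviated together with r between -0.18 and 0.14, above 0.1 in 2 of 9 pairs. Of the 9 libraries, 4 correlated best with their own number. With 3 libraries per group, this does not settle whether same-numbered samples share more than a number. The cause of these changes was not tested. Groups of 3 libraries and the 17617138 counts of shading replicate 3 limit what could be detected.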
